A study of Mus musculus with 43 samples.

Results

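The DEAD box (Ddx) and DEAH box (Dhx) RNA helicases were followed through a mouse series on the arginine methyltransferase Prmt1 in male germ cells. Members were the protein-coding GENCODE vM21 genes with a symbol starting in Ddx or Dhx and a number, without Ddx4, whose locus carries the Cre and reporter knock-in of this study, and without genes on chromosomes X and Y. Of 54 matching symbols, 53 were protein-coding and 3 of those were left out, which gave 50 members, 34 Ddx and 16 Dhx genes on 15 autosomes, among 20807 autosomal protein-coding genes. Expression came from 10 RNA libraries of mice at postnatal day 7 (P7), namely 3 wild-type (WT) and 3 Prmt1-dKO whole testis libraries and 2 WT and 2 Prmt1-dKO libraries of sorted spermatogonia. Chromatin came from 33 CUT&Tag peak lists for 7 histone marks, 17 at P7 and 16 at P14.

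The dKO mice carried floxed Prmt1 alleles (Prmt1 lox/lox) with the Ddx4-CreERT2 knock-in, in which the Ddx4 promoter drives CreERT2 and EGFP in the germline, and had received tamoxifen on 3 days. The labels call the RNA controls WT, and the methods describe the mice behind the sorted controls as heterozygous Ddx4-GFP-CreERT2 Prmt1 +/lox, so that those controls would share the knock-in and 1 floxed allele with the dKO. Tamoxifen in the controls was not stated for each library. Somatic cells of the testis keep Prmt1 in this model. The bulk libraries are labelled spermatogonia although their protocol names whole testis RNA, and they are called whole testis here. The sorted libraries were EGFP-positive cells amplified by Smart-seq2, so that the assays differ in cells and in library method together. All mice had a C57BL/6J background per the methods. The CUT&Tag cells were unsorted tubule suspensions, strained to remove Sertoli cells, from WT mice except for the H4R3me2s lists of the dKO at P7. The P14 lists are titled spermatogonia and typed spermatocyte in the labels. Nothing in the labels ties libraries to separate animals, so p-values measure the spread between these libraries.

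DEAD and DEAH box proteins bind RNA and use ATP to remodel RNA duplexes and RNA-protein complexes, and they are named after the Asp-Glu-Ala-Asp or Asp-Glu-Ala-His residues of a conserved ATPase motif. DEAD box enzymes open short duplexes locally, whereas many DEAH box enzymes translocate along RNA and drive steps such as spliceosome remodelling. They serve nearly every step in the life of an RNA, and germ cells have helicases of their own besides the housekeeping members. By their known roles the members were grouped as splicing (11), ribosome biogenesis (16), mRNA export, translation and decay (8), transcription and RNA processing cofactors (3), innate RNA sensing (3), mitochondrial (2), germ cell (2) and other (5).

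Total counts were 12396345 to 16598249 per whole testis library and 15610392 to 18547103 per sorted library. Counts were found for 15572 to 17069 gene identifiers in the sorted WT libraries and for 20159 to 21350 in the sorted dKO libraries. Prmt1 was at 604 to 652 TPM in WT and 402 to 433 TPM in dKO testis, and at 350 and 239 TPM in sorted WT against 179 and 151 TPM in sorted dKO cells. Each of 10 germ cell markers had a mean of at least 1 TPM in every group. Their summed level was 1589 and 1496 TPM in sorted WT against 1925 and 1885 TPM in sorted dKO libraries. In whole testis it was 1667 to 1932 TPM in WT and 1564 to 1609 TPM in dKO. The summed level of 5 macrophage markers was 5.02 and 0 TPM in sorted WT against 34.7 and 26.8 TPM in sorted dKO libraries, with Adgre1, Cd68, Csf1r and Lyz2 below 1 TPM in sorted WT. The summed level of 7 Sertoli cell markers was 214 and 223 TPM in sorted WT against 315 and 428 TPM in sorted dKO libraries. In whole testis the Sertoli cell sum was 4575 to 4976 TPM in WT and 3066 to 3399 TPM in dKO, and the sum of 6 Leydig cell markers was 624 to 724 TPM in WT and 164 to 185 TPM in dKO. The sum of 4 peritubular cell markers was 806 to 873 TPM in WT and 278 to 492 TPM in dKO testis, and the macrophage sum was 56.7 to 64.4 TPM in WT and 83.8 to 89.6 TPM in dKO testis. The part of these shifts in the member results below was not tested.

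The members were abundant as a family. TPM (a share of all transcripts in a library) is scaled by gene length, so that levels can be set side by side between genes. In WT testis all 50 members had a mean of at least 1 TPM, with a median of 48.7 TPM and a range of 1.40 to 609 TPM, against a median of 23.6 TPM over the protein-coding genes at or above 1 TPM. In sorted WT spermatogonia 47 members reached 1 TPM and their median was 45.7 TPM. By comparison, 63.1% of protein-coding genes reached 1 TPM in WT testis and 54.1% in sorted WT cells.

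Levels differed by role. In WT testis the cofactor group had the highest median (233 TPM), followed by splicing (70.0 TPM) and ribosome biogenesis (53.8 TPM). The germ cell members (median 7.54 TPM) and the innate RNA sensors (median 2.85 TPM) were the lowest groups. In sorted WT cells the germ cell members stood higher, with a median of 29.9 TPM, and the innate sensors were near 0, with a median of 0.24 TPM. Replicate libraries mostly lay close together, with a median ratio of highest to lowest library of 1.15 in WT testis, 1.35 in dKO testis, 1.35 in sorted WT and 1.17 in sorted dKO libraries. The members more than 2-fold apart within a group numbered 1, 4, 5 and 2 in the same order.

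Ddx5 (p68, a cofactor of transcription and microRNA processing) was the most abundant member in every group. Its levels were 667, 655 and 504 TPM in WT testis and 562, 344 and 581 TPM in dKO testis, and 826 and 851 TPM in sorted WT against 669 and 718 TPM in sorted dKO cells. The groups overlapped in testis and did not overlap on the TPM scale in the sorted cells. On the count scale Ddx5 was flat, with a log2 fold change (log2FC, dKO over WT) of 0.01 ± 0.13 (SE, FDR = 0.963, edgeR) in testis and 0.01 ± 0.14 (FDR = 0.975, edgeR) in sorted cells.

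That gap between scales applied to the whole data set. TPM ratios had a median log2 of -0.15 in testis and -0.22 in sorted cells over the protein-coding genes at or above 1 TPM, whereas the trimmed-mean (TMM) scaled counts had medians of 0.02 and 0.15 over all genes tested. On TPM 35 of the 50 members were lower in dKO in each assay, and their median log2 ratios were -0.16 and -0.34. On scaled counts the members split 22 higher and 28 lower in each assay, with medians of -0.03 in testis and -0.09 in sorted cells. The sign differed between the scales for 11 members in testis and 9 in sorted cells. The tests below use the counts, and TPM levels are given beside them.

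**Figure D1:**
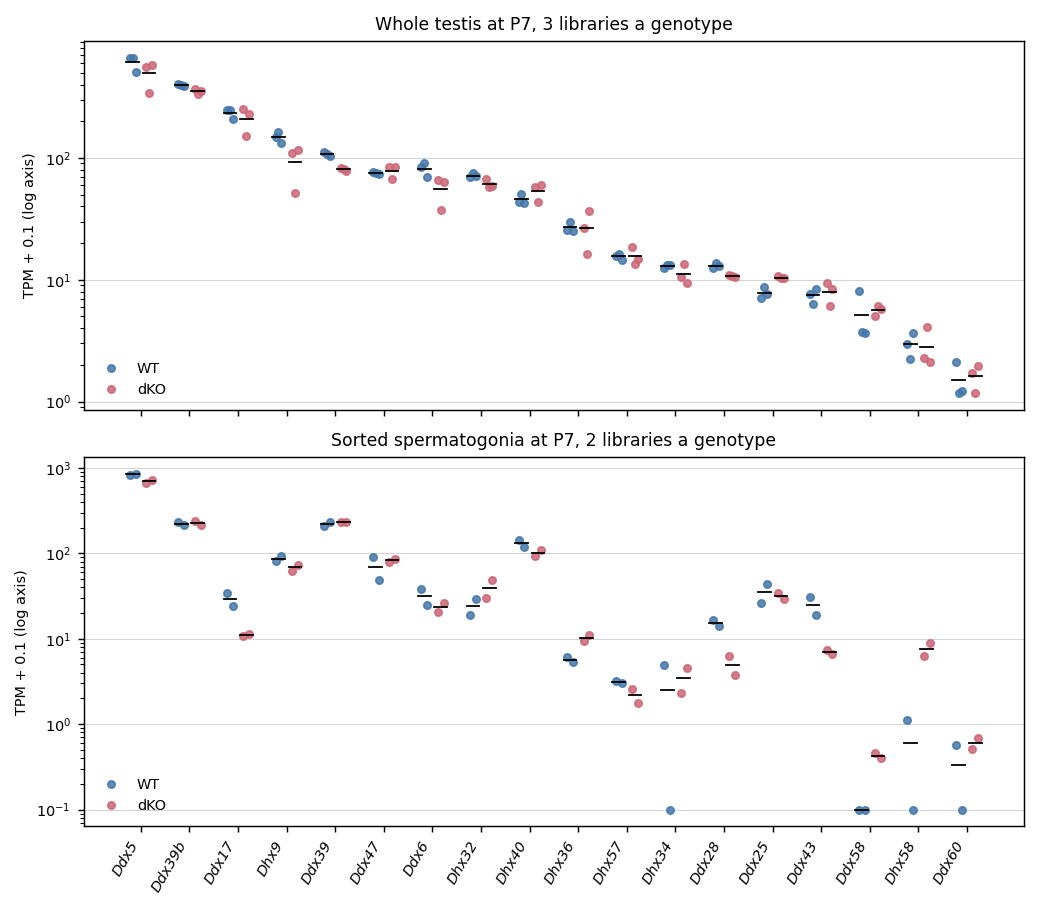
TPM plus 0.1 on a log axis for selected members in each of the 10 RNA libraries at P7, by assay (panels) and genotype (colours), with 1 point per library and a bar at the group mean. Ddx25 in dKO testis sits at 10.2 to 10.6 TPM, above the 3 WT libraries at 7.03 to 8.63 TPM, and Ddx43 in sorted dKO cells at 6.47 and 7.20 TPM, below the sorted WT libraries at 30.7 and 18.8 TPM.

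The first comparison asked how the members differed between dKO and WT in whole testis. Only 2 of the 50 members passed an FDR of 0.05 in edgeR, Ddx25 and Dhx40, both higher in dKO, and none was lower. Over all 16554 genes tested, 10.6% were called higher and 8.51% lower. With a 2-fold threshold added no member was called, against 5.32% and 1.78% of all genes in the 2 directions. At an unadjusted p under 0.05 there were 3 members higher and 3 lower (6.0% each), against 18.2% and 15.7% of all genes. DESeq2 called 2 members higher and 1 lower, against 10.5% and 7.83% of 21741 genes. In bulk tissue, fewer cells of a type and less RNA per cell cannot be told apart.

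Ddx25 (GRTH, a helicase of germ cells and Leydig cells known for the export and translation of spermatid mRNAs) was at 7.03, 8.63 and 7.49 TPM in WT and 10.6, 10.2 and 10.2 TPM in dKO testis. Every dKO library lay above every WT library, and the log2FC was 0.58 ± 0.12 (SE, FDR = 0.0117, edgeR). In sorted cells the gene was higher than in testis, at 25.9 and 44.2 TPM in WT and 34.1 and 29.0 TPM in dKO, with overlapping groups and a log2FC of 0.08 ± 0.31 (FDR = 0.925, edgeR).

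Dhx40 (a DEAH box protein with few known functions) was at 43.5, 50.2 and 42.7 TPM in WT and 57.7, 43.3 and 60.3 TPM in dKO testis. The groups overlapped on TPM and were apart on scaled counts, where the log2FC was 0.40 ± 0.11 (SE, FDR = 0.0372, edgeR). Neither testis call held in every repeat. Without WT replicate 1 or WT replicate 3 no member passed in edgeR, and without WT replicate 2, dKO replicate 1 or dKO replicate 3 only Ddx25 did. In these 5 refits 4.97% to 9.47% of all genes were called higher and 2.80% to 7.46% lower. Without dKO replicate 2 there were 4 higher, with Ddx47 and Dhx35 added, and 7 lower, against 16.4% and 15.2% of all genes. That library was extreme in both directions, with the lowest scaled count of the 6 for 15 members and 28.5% of all genes and the highest for 10 members and 30.6% of all genes.

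Members lower in dKO that missed the threshold included several helicases of mRNA handling. Dhx9 (RNA helicase A, which resolves structured RNA and acts as a transcription cofactor) was at 149, 162 and 132 TPM in WT and 110, 51.6 and 117 TPM in dKO testis. The groups did not overlap, and dKO replicate 2 stood far below the other dKO libraries. The log2FC of Dhx9 was -0.54 ± 0.21 (SE, FDR = 0.102) in edgeR and passed in DESeq2 (FDR = 0.0461). Ddx6 (a P-body helicase of decapping and translational repression) was at 84.5, 90.3 and 70.3 TPM in WT and 65.4, 37.2 and 62.9 TPM in dKO, again without overlap, with a log2FC of -0.42 ± 0.16 (FDR = 0.0956, edgeR). Dhx34 (nonsense-mediated decay) had a log2FC of -0.31 ± 0.14 (FDR = 0.16, edgeR) and Dhx29 (translation of mRNAs with structured leaders) of -0.30 ± 0.12 (FDR = 0.118, edgeR).

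By role, 7 of the 8 mRNA export, translation and decay members had a negative log2FC in testis (47.9% of all genes), and 6 of the 8 had all dKO libraries below all WT libraries on scaled counts. The median log2FC of this group was -0.15 and none passed the FDR. Over all members, 7 had dKO above WT and 11 had dKO below WT without overlap, against 20.9% and 19.9% of all genes tested, which is 14.0% and 22.0% of the members. Splicing members varied little (8 of 11 negative, 2 below without overlap, median -0.04), with Ddx39 (an mRNA export and splicing helicase) at 111, 108 and 104 TPM in WT and 83.3, 81.6 and 77.7 TPM in dKO. Its paralog Ddx39b (UAP56, of the TREX export complex) was at 404, 400 and 392 TPM in WT and 368, 334 and 353 TPM in dKO, and on scaled counts its groups overlapped. Of the ribosome biogenesis members 9 of 16 were positive and 4 lay above without overlap, close to the shares of all genes (52.1% positive and 20.9% above). Of these, Ddx47 (pre-rRNA processing) had the smallest FDR, at 76.4, 75.7 and 73.3 TPM in WT and 83.6, 67.5 and 83.4 TPM in dKO, with a log2FC of 0.31 ± 0.10 (FDR = 0.0656, edgeR).

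**Figure D2:**
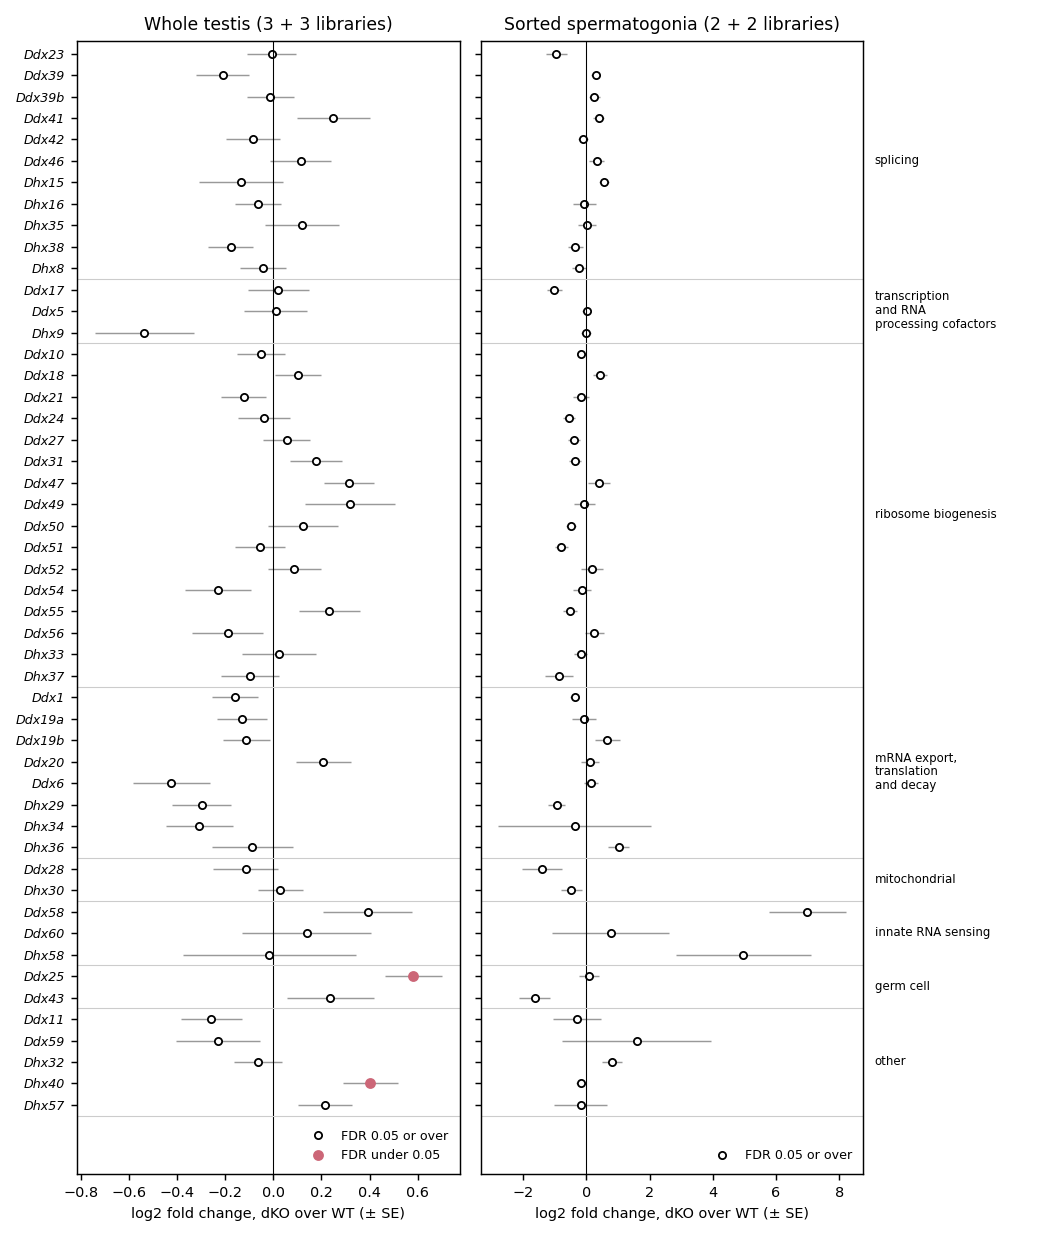
log2 fold change (dKO over WT, TMM-scaled counts, edgeR) of the 50 members in whole testis (left, 3 + 3 libraries) and sorted spermatogonia (right, 2 + 2 libraries), grouped by role, with bars of 1 SE and filled points where the FDR was under 0.05. The filled points are Ddx25 at 0.58 and Dhx40 at 0.40 in testis, and the horizontal axes differ between the panels.

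The second comparison asked the same of sorted spermatogonia. With 2 libraries per group edgeR called no member, and no gene at all among the 16443 tested (0.00% higher and 0.00% lower). The smallest FDR of a member was 0.0774, for Ddx58, which passed the count filter only through its dKO libraries. At an unadjusted p under 0.05 there were 3 members higher and 7 lower, against 16.4% and 7.35% of all genes. DESeq2 called 3 members higher and 5 lower, which is 6.0% and 10% of the members against 8.70% and 5.90% of 16901 genes. Members with no overlap on scaled counts numbered 12 above and 16 below WT, or 24.0% and 32.0%, against 36.3% and 20.3% of all genes. Thus members were found below WT at a larger share, and above WT at a smaller share, than all genes tested, as a description without a test. Members were well expressed (median 45.7 TPM in sorted WT, against 22.2 TPM over protein-coding genes at or above 1 TPM). No share over genes of a like level was taken, and more gene identifiers had counts in sorted dKO than in sorted WT libraries. The gap is therefore not read as a trait of the family.

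The most negative log2FCs among members averaging 50 counts or more and without overlap were those of Ddx43, Ddx28 and Ddx17, of which DESeq2 called Ddx43 and Ddx17. Ddx43 (HAGE, a germ cell and cancer-testis helicase) was at 30.7 and 18.8 TPM in sorted WT and 7.20 and 6.47 TPM in sorted dKO cells. The groups were well apart, with a log2FC of -1.63 ± 0.48 (SE, FDR = 0.127 in edgeR and 0.011 in DESeq2). In testis Ddx43 was at 7.57, 6.20 and 8.32 TPM in WT and 9.27, 6.00 and 8.27 TPM in dKO, with overlapping groups and a log2FC of 0.24 ± 0.18 (FDR = 0.394, edgeR).

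Ddx17 (p72, the close relative of Ddx5) was at 33.9 and 23.9 TPM in sorted WT and 10.8 and 11.3 TPM in sorted dKO cells. The log2FC was -1.0 ± 0.24 (SE, FDR = 0.0826 in edgeR and 0.00543 in DESeq2). In testis it was at 246, 246 and 207 TPM in WT and 250, 151 and 228 TPM in dKO, so that the sorted WT libraries held far less Ddx17 than any testis library, and the testis log2FC was 0.02 ± 0.13 (FDR = 0.926, edgeR). Ddx5, its paralog, showed no such difference on scaled counts in either assay.

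Ddx28 (assembly of the mitochondrial ribosome) was at 16.6 and 14.0 TPM in sorted WT and 6.14 and 3.64 TPM in sorted dKO cells, with a log2FC of -1.40 ± 0.64 (SE, FDR = 0.287 in edgeR and 0.0929 in DESeq2). Both dKO libraries lay below both WT libraries. It passed in neither test. The other members called lower by DESeq2 were Dhx29, at 65.8 and 87.3 TPM in WT and 23.2 and 30.4 TPM in dKO (edgeR log2FC -0.93 ± 0.27, FDR = 0.122 in edgeR and 0.0329 in DESeq2), Ddx51 and Ddx1. Ddx51 (maturation of the large ribosomal RNA) was at 55.5 and 65.4 TPM in WT and 17.6 and 23.1 TPM in dKO (edgeR log2FC -0.79 ± 0.21, FDR = 0.104 in edgeR and 0.023 in DESeq2). Ddx1 (a subunit of the tRNA ligase complex) was at 175 and 153 TPM in WT and 106 and 115 TPM in dKO (edgeR log2FC -0.37 ± 0.14, FDR = 0.219 in edgeR and 0.0246 in DESeq2). For all 3 genes both dKO libraries lay below both WT libraries.

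Of the 16 ribosome biogenesis members, Ddx51 among them, 12 had a negative log2FC in sorted cells and 8 had both dKO libraries below both WT libraries, with a median log2FC of -0.18, against -0.09 over all members and 0.15 over all genes. None passed the edgeR FDR, and the lowest log2FC of the group was -0.87 (Dhx37, a small-subunit processome helicase). Ddx24 (a nucleolar helicase of the large subunit) was at 207 and 284 TPM in sorted WT and 111 and 148 TPM in sorted dKO cells (log2FC -0.53 ± 0.19, FDR = 0.192, edgeR). Over all genes 44.1% had a negative log2FC in sorted cells and 20.3% lay below without overlap, again without a share over genes of a like level. In testis the same group had a median of 0.04.

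Splicing members had mixed signs in sorted cells, 6 with a positive and 5 with a negative log2FC, and 5 were above and 2 below WT without overlap, against 36.3% and 20.3% of all genes. Dhx15 (spliceosome disassembly) was at 56.6 and 59.7 TPM in WT and 68.8 and 76.1 TPM in dKO, with a log2FC of 0.55 ± 0.15 (SE, FDR = 0.104 in edgeR and 0.0474 in DESeq2). Ddx23 (the Prp28 helicase of the U5 snRNP) was at 55.7 and 34.2 TPM in WT and 27.4 and 18.1 TPM in dKO and passed in neither test (log2FC -0.94 ± 0.35, FDR = 0.199 in edgeR and 0.0786 in DESeq2). Dhx36 (which resolves G-quadruplexes in mRNA) was at 6.04 and 5.19 TPM in WT and 9.41 and 10.9 TPM in dKO, without overlap, with a log2FC of 1.02 ± 0.32 (FDR = 0.146 in edgeR and 0.049 in DESeq2). Dhx32 (a DEAH box protein of unsettled function) was at 18.6 and 29.1 TPM in WT and 30.1 and 48.6 TPM in dKO, with a log2FC of 0.82 ± 0.32 (FDR = 0.218, edgeR).

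The innate RNA sensors stood apart by being almost silent in the sorted WT libraries. Ddx58 (RIG-I, the sensor of viral RNA ends) had 0 counts in both sorted WT libraries and 16 and 12 counts in the dKO libraries, or 0.36 and 0.30 TPM. It passed the count filter only through the dKO libraries, where it is high, so its edgeR FDR of 0.0774 is no support for a difference. No fold in sorted cells is read from the fit, since its size depends on the prior count and PCR reads are not independent molecules. Other members, such as Dhx34 with 270 and 0 counts, also read 0 in 1 of the 2 sorted WT libraries. Dhx58 (LGP2, a regulator of that sensor) was at 1.01 and 0 TPM in WT and 6.13 and 8.88 TPM in dKO, with 11 and 0 counts against 127 and 152, and a log2FC of 4.97 ± 2.13 (FDR = 0.26 in edgeR and 0.0411 in DESeq2). With WT replicate 2 left out that log2FC was 4.0. With WT replicate 1 left out the WT group held 0 counts, and the fitted 10.2 depends on the prior count. Dhx58 too met the count filter through its dKO libraries, so its FDRs are no support for a difference. Ddx60 (a cofactor of RIG-I signalling) was at 0.47 and 0 TPM in WT and 0.41 and 0.59 TPM in dKO, with overlapping groups. These levels moved beside the macrophage marker sum given above, and the part of other cell types in them was not tested. Dhx58 overlaps an antisense gene, and reads of the 2 cannot be told apart where counting ignored strand.

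In whole testis the sensors were expressed and showed little difference. Ddx58 was at 8.03, 3.62 and 3.53 TPM in WT and 4.91, 5.96 and 5.68 TPM in dKO, and Dhx58 at 2.85, 2.15 and 3.56 TPM in WT and 2.17, 3.98 and 2.03 TPM in dKO. Both pairs of groups overlapped, with log2FCs of 0.39 ± 0.19 (SE, FDR = 0.175, edgeR) and -0.02 ± 0.36 (FDR = 0.98, edgeR).

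The sorted result rests on few libraries. Dhx34 was at 4.84 and 0 TPM in sorted WT, from 270 and 0 counts, and at 2.23 and 4.48 TPM in sorted dKO cells, so that 1 library sets its WT level. With WT replicate 1 left out edgeR called 12 members higher and 9 lower, against 34.1% and 17.1% of all genes. With WT replicate 2 left out it called 6 higher and 9 lower, against 27% and 16.1%, and with either dKO library left out it called no member and no gene. These member counts were near or below the shares of all genes. The biological coefficient of variation was 0.767 in sorted cells and 0.155 in testis.

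The third comparison set the genotype difference in testis against that in sorted cells, as an interaction term over the 10 libraries. At an FDR of 0.05 in edgeR, 3 members had a difference more positive in testis (Ddx43, Ddx17 and Ddx23) and 5 a difference more negative (Ddx58, Dhx58, Dhx36, Dhx32 and Ddx39). Over 19608 genes 4.24% were positive and 14.7% negative, against 6.0% and 10% of the members. With RLE size factors in place of TMM, which moved the median over all genes from -0.22 to -0.10, the split was 4 and 3 (5.21% and 13.4% of all genes), with Ddx51 gained and Dhx32 and Ddx39 lost. The joint fit shares 1 dispersion per gene across both assays, whose separate fits differed widely in variation. Its standard errors can therefore be smaller than those of the sorted fit alone, such as 1.39 against 2.13 for Dhx58, 0.22 against 0.24 for Ddx17 and 0.25 against 0.35 for Ddx23, and the interaction calls rest on this pooling. Ddx43 differed by 1.78 on the log2 scale (FDR = 0.0238, edgeR), Ddx17 by 0.94 (FDR = 0.0185, edgeR) and Dhx36 by -1.20 (FDR = 0.0252, edgeR). Of 12 alternative settings Ddx58 passed in 12, Ddx17 in 10, Ddx43 in 8 and Dhx36 in 6, and the others in 4 or fewer. Ddx58 reads 0 in sorted WT in every setting, so its passing in all 12 was close to fixed in advance and is no sign of stability. Cell composition and library method differ between the assays, and their parts cannot be told apart.

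Other genes of the pathway gave a frame for these values. Of 18 other RNA helicases whose symbols do not begin with Ddx or Dhx (some of them DEAD box proteins by sequence, such as Eif4a1), none passed in edgeR in either assay. In testis 15 had a negative log2FC (47.9% of all genes), 3 lay below WT without overlap (19.9% of all genes) and the median was -0.12. In sorted cells 5 lay above and 6 below without overlap, against 36.3% and 20.3% of all genes, and the median was -0.01. There Ythdc2 (a meiotic RNA helicase) had a log2FC of -1.92 (FDR = 0.0774, edgeR) and Eif4a1 (the cap-binding complex helicase) of 1.12 (FDR = 0.0774, edgeR). Ifih1 (MDA5, the other RIG-I-like sensor) had the lowest log2FC of this list, -2.81 ± 2.21 (SE, FDR = 0.556, edgeR), from 8.28 and 2.20 CPM (scaled counts) in sorted WT to 1.48 and 0 CPM in sorted dKO cells, the opposite direction to Ddx58 and Dhx58. Of 16 G-patch proteins, a family with known activators of DEAH box helicases, Nkrf alone passed in testis (log2FC -0.46, FDR = 0.0403, edgeR) and none passed in sorted cells.

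The promoters of the members were then read for 7 histone marks. Arginine methylation comes as a mono form (me1), an asymmetric dimethyl form (me2a), of which PRMT1 is the main source at H4R3, and a symmetric form (me2s) that other PRMTs make. H3K4me3 marks active promoters and H3K27ac active promoters and enhancers. A gene was called marked where at least 2 lists of a mark had a peak summit within 3000 bases of one of its annotated starts. Peaks were called for each library at p of 0.005, and for H3K4me3 at q of 0.05.

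At P7, H3K4me3 marked 49 of the 50 members (98.0%, against 61.7% of all protein-coding genes and 89.3% of those at or above 1 TPM in WT testis). Dhx58 was the exception, and it had no mark of the 7 at either age. H3K27ac marked 38 members at P7 (76.0%, against 32.0% and 48.6%), and 14 with peaks at q up to 0.01 (28.0%, against 10.9% and 16.7%). The 12 members without H3K27ac at P7 had a median of 29.5 TPM in sorted WT cells and the 38 with it of 47.1 TPM. Both germ cell members, Ddx25 and Ddx43, had an H3K27ac peak in 1 of 2 lists at P7 and so did not count as marked.

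The arginine marks were sparse on the members at P7. H4R3me2a marked 8 (16.0%, against 16.1% of all protein-coding and 22.6% of expressed genes), H3R2me2a 5 (10%, against 11.5% and 15.8%) and H4R3me1 6 (12.0%, against 11.4% and 16.2%). H3R8me2a marked 11 (22.0%, against 10.2% and 14.8%) and H4R3me2s 19 (38.0%, against 18.6% and 27.5%), so that these 2 stood above their shares in expressed genes and the other 3 below. These P7 calls rest on the lenient peak threshold. At q up to 0.01 they fell to 0 for H4R3me2a (0.894% of all protein-coding genes) and to 1 each for H3R2me2a, H4R3me1, H3R8me2a and H4R3me2s, where the shares of all protein-coding genes were 0.476%, 0.783%, 1.07% and 1.60%. Most P7 calls of these marks over all protein-coding genes were thus lost at this threshold too. At the deposited threshold 22 members (44.0%) had no arginine mark at P7, against 63.2% of all protein-coding and 48.7% of expressed genes. Ddx50 (a nucleolar helicase, paralog of Ddx21), Ddx54 (a nucleolar helicase of ribosome assembly) and Dhx32 carried 6 of the 7 marks each and none carried 7. Of all protein-coding genes 2.17% carried 6 and 1.24% carried 7, and of expressed genes 3.35% and 1.82%.

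At P14 the members carried more marks. H4R3me2a marked 38 (76.0%, against 51.1% of all protein-coding and 69.0% of expressed genes), H3R2me2a 37 (74.0%, against 53.4% and 71.6%), H3R8me2a 34 (68.0%, against 34.5% and 49.8%) and H4R3me1 21 (42.0%, against 31.4% and 45.0%). H4R3me2s marked 32 (64.0%, against 35.8% and 51.8%), H3K27ac 48 (96.0%, against 49.8% and 73.9%) and H3K4me3 the same 49 (98.0%, against 64.0% and 90.3%). With peaks at q up to 0.01 the P14 counts fell to 24 members with H3R2me2a (48.0%, against 29.6% of all protein-coding and 42.4% of expressed genes), 19 with H4R3me2a (38.0%, against 20.4% and 30.3%), 12 with H3R8me2a (24.0%, against 12.2% and 18.4%) and 8 each with H4R3me1 (16.0%, against 10.5% and 15.9%) and H4R3me2s (16.0%, against 6.82% and 10.4%). For H4R3me2s the rule asked for 2 of 3 lists at P14 and 2 of 2 at P7, and the members in every list were 16 at P14 and 19 at P7, so that no rise of this mark can be read from its counts. The median number of marks per member was 3 at P7 and 5.5 at P14, with 44 members gaining (88.0%), 6 equal and 0 losing. Of all protein-coding genes 63.8% gained and 3.20% lost, and of expressed genes 82.3% and 3.55%. Over the 6 marks with as many lists at both ages the medians were 2 and 5, again with counts of 44, 6 and 0, and 63.1% of all protein-coding and 81.6% of expressed genes gained. At P14, 17 members (34.0%) had 7 marks, Ddx5 and Ddx17 among them, against 16.7% of all protein-coding and 25.6% of expressed genes. At that age 5 members had no arginine mark, against 33.8% and 14.1%. The lists held 15361 to 36145 peaks at P7 and 18423 to 55908 at P14, so that the number of peaks called moved with age, and its part in the gain was not tested. The peak names inside the 3 H4R3me2s lists labelled P14 carry the number 17 for the day, which leaves the age of these 3 lists uncertain.

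**Figure D3:**
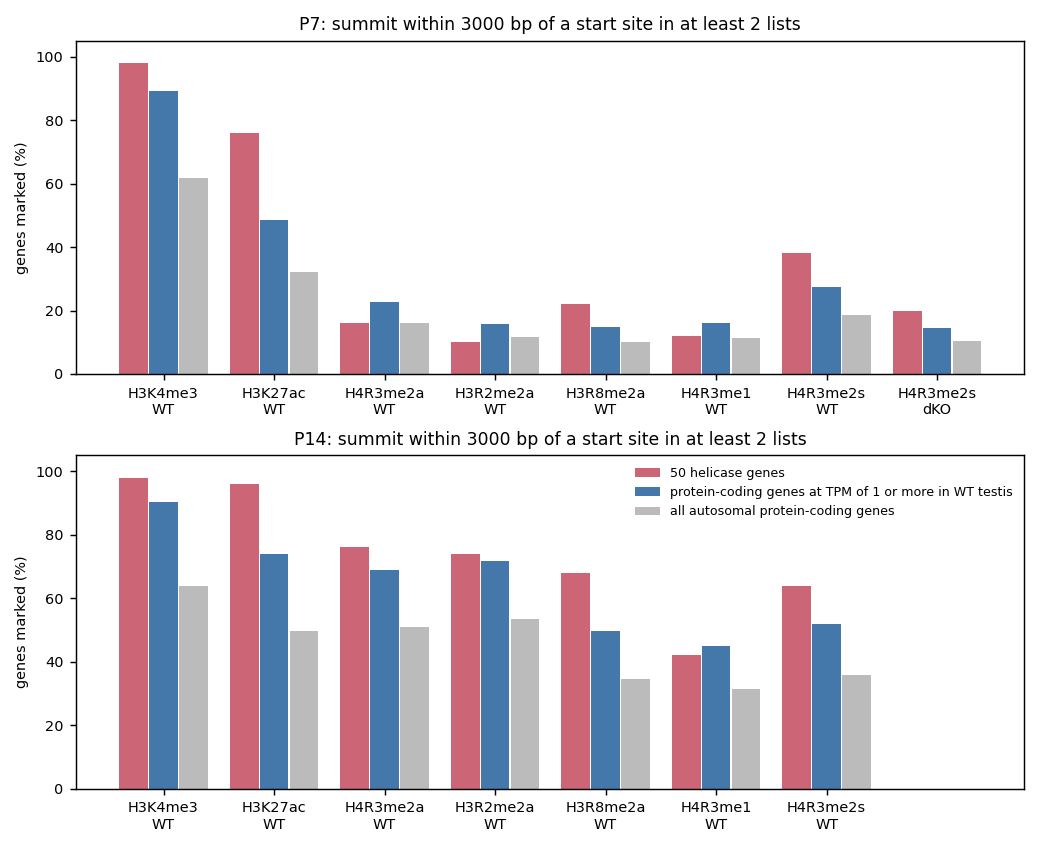
Share of genes marked (percent) by each histone mark at P7 and P14, for the 50 members, for all autosomal protein-coding genes and for those at or above 1 TPM in WT testis. H3R8me2a at P14 covers 68.0% of the members and 49.8% of the expressed genes, while H3K4me3 covers 98.0% of the members at both ages.

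**Figure D4:**
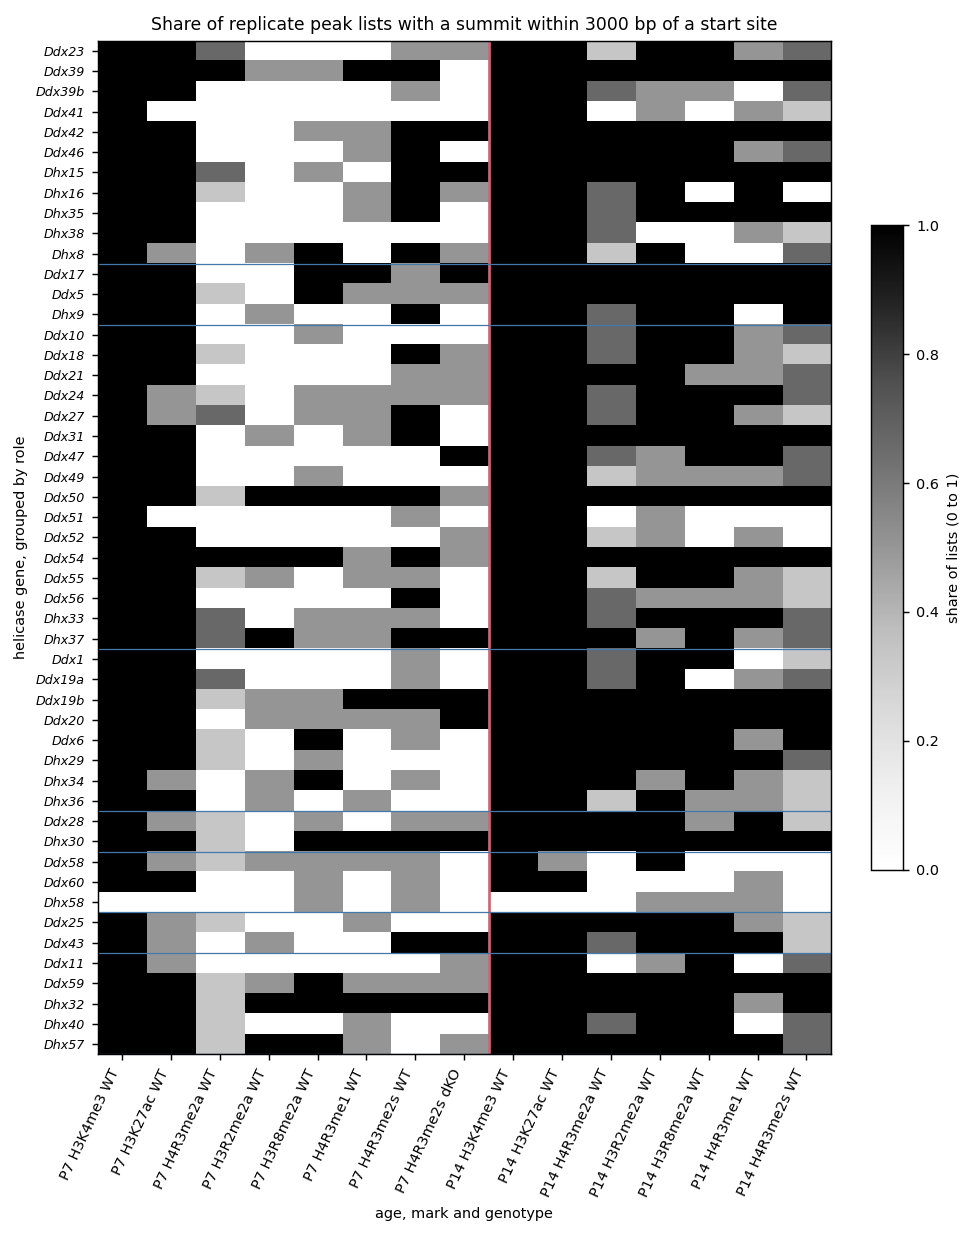
Share of replicate peak lists (grey scale, 0 white to 1 black) with a summit within 3000 bases of a start of each member (rows, by role, groups split by horizontal lines), for each mark and genotype at P7 (left of the vertical line) and P14 (right). The H3K4me3 columns are black for 49 members and white for Dhx58, and the arginine marks are mostly light at P7 and mostly dark at P14.

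H4R3me2s was the mark profiled in both genotypes at P7. It marked 19 members in WT and 10 in dKO (20.0%), while over all protein-coding genes the shares were 18.6% and 10.3%. Ddx19b, Ddx42, Ddx43, Dhx15, Dhx30, Dhx32 and Dhx37 were marked in both (14.0%, against 4.7% of all protein-coding genes), 12 members in WT only (24.0%, against 13.9%) and Ddx17, Ddx20 and Ddx47 in dKO only (6.0%, against 5.5%). Marked means here a peak in 2 of 2 lists. Of the 12, Ddx39 and Dhx9 had a dKO peak in 0 lists, while Ddx50 and Ddx54 had 1 in 1 of 2 lists, and the dKO peak of Ddx50 was the strongest of any member (fold enrichment 4.84). With 2 lists a group, whose lengths were 19981 and 36145 peaks in WT and 33941 and 28221 in dKO, this is a count of calls and was not tested as a difference. The median −log10 q of the members' best H4R3me2s peaks was 0.85 in WT and 0.08 in dKO, so that most of them would not pass a q threshold of 0.01.

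Peak strength was highest for H3K4me3. The best H3K4me3 peaks of the members had a median fold enrichment of 6.76 at P7 and 7.39 at P14, with the highest values at Dhx36 (10 at P7 and 11.0 at P14). The arginine marks had medians of 3.06 (H3R2me2a) to 3.77 (H4R3me2s) at P7 and 3.60 to 3.90 at P14, and H3K27ac 3.67 and 4.72. Summits lay near the starts, at a median distance of 120 to 270 bases over the marks. Of the H3K4me3 summits 79 lay downstream and 19 upstream of the nearest start at P7. For 13 members another coding gene starts within 1000 bases on the opposite strand, such as Cep95 at 67 bases from Ddx5, Fank1 at 58 bases from Dhx32 and Pus3 at 67 bases from Ddx25, and a peak there cannot be assigned to either gene alone.

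At Ddx50, 1 H3K4me3 peak ran from chr10:62650207-62651462 in the first P7 list, with a fold enrichment of 7.59, across the annotated start of the gene on the minus strand. At Ddx43 the peak of the same list ran from chr9:78395527-78396486 with a fold enrichment of 7.09, and at Dhx36 from chr3:62506353-62507044 with 8.96 (mm10). The DNA just before these starts is shown because it lies under or beside these peaks, together with Dhx9 and Dhx34, which missed the FDR in testis with dKO below WT. Each run holds the 250 bases before a RefSeq start (GRCm38.p6), 5′ to 3′ on the strand of the gene. The runs are chr10:62651219-62651468 on the minus strand for Ddx50, chr9:78395527-78395776 on the plus strand for Ddx43, chr3:62506989-62507238 on the minus strand for Dhx36, chr1:153487661-153487910 on the minus strand for Dhx9 and chr7:16222033-16222282 on the minus strand for Dhx34. Capitals mark matches to CCGGAAG (the ETS core), GCATGCGC (the NRF1 core), ATTGG (the CCAAT box) and TATAAA (the TATA box), on either strand.
Ddx50: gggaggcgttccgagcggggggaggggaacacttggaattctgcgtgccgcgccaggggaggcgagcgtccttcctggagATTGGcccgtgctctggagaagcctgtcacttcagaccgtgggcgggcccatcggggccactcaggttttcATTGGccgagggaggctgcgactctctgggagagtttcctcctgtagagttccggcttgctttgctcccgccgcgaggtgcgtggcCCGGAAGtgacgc
Ddx43: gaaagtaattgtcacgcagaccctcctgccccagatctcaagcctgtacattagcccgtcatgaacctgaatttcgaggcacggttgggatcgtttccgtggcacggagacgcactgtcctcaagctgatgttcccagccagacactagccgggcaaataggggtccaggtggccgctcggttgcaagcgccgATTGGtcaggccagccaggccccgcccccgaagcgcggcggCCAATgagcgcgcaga
Dhx36: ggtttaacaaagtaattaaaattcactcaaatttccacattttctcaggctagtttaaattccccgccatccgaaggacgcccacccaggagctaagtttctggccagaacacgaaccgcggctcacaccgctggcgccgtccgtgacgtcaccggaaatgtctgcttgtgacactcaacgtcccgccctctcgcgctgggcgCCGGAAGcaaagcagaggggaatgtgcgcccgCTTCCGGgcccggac
Dhx9: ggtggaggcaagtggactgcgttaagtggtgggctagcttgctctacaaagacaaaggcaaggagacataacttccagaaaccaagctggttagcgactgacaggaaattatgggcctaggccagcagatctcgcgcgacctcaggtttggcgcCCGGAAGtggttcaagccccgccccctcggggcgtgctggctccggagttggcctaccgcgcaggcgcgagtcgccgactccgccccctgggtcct
Dhx34: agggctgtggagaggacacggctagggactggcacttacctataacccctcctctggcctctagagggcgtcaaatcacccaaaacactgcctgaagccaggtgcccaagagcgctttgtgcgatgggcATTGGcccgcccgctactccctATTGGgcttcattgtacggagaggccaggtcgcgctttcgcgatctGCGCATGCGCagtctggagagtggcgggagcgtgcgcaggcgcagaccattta

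Most of the matches stood within 100 bases of the start, and none of these 5 runs held a TATA box. The ETS letters began 13 bases before the start in Ddx50, 96 bases before it in Dhx9 and at 47 and 15 bases in Dhx36, once on each strand. In Ddx43 the CCAAT letters stood at 57 and 16 bases before the start, on opposite strands. In Dhx34 the NRF1 letters matched on both strands in 1 overlapping run of 10 bases.

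RefSeq promoters of 300 bases (250 before and 50 after a start) were matched for 44 members, with 55 sequences, and 6 members had none. ETS letters were in 21 of the 55 (38.2%), against 9.0% of all 31396 autosomal promoters and 16.7% of the 13104 of expressed protein-coding genes. NRF1 letters were in 6 (10.9%, against 2.7% and 5.17%), CCAAT letters in 25 (45.5%, against 37.3% and 37.3%) and TATA letters in 6 (10.9%, against 13.6% and 6.93%). The ETS matches fell in 19 members of several roles, among them Ddx5, Ddx17, Ddx47, Ddx54, Dhx9 and Dhx36. The member promoters had a median GC content of 59.7%, against 61.0% in those of expressed genes and 53.0% in all. Their median number of CpG sites was 24, against 20 and 7. These are counts of letters without a test, and several members have more than 1 promoter in the count.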

How the data were processed

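Gene tables from RSEM were deposited for each RNA library, with expected counts per gene and TPM, which the authors obtained after trimming with fastp 0.23.2 and alignment to mm10 with STAR. The deposited peak lists come from MACS2 2.1.0, run by the authors on each CUT&Tag library, and give the fold enrichment of each peak as a ratio over background and its −log10 q. Expected counts were rounded to whole numbers. Genes were filtered with filterByExpr (minimum count 10, minimum total 15) within each assay, given TMM factors and fitted with glmQLFit and glmQLFTest of edgeR 4.0.16 (R 4.3.3) over all genes of the assay, with Benjamini-Hochberg adjustment (FDR). A joint fit over the 10 libraries gave the interaction. The methods of the study use DESeq2, which was run as an alternative (1.42.0), as were limma-voom (limma 3.58.1), RLE size factors, no filter, a replicate block and each library left out. The scripts were tested on simulated data. Of 55401 gene identifiers, 260 had no GENCODE vM21 match. TPM ratios used a pseudocount of 0.1. Named members were, in each assay, those past the FDR (up to 8 per direction) or else the 3 per direction with the largest log2FC among members averaging 50 counts or more whose genotypes did not overlap, plus Ddx5, the 3 highest and 3 lowest by TPM, up to 5 with no mark or every mark, and up to 5 past the interaction FDR. Ddx1, Ddx23, Ddx24, Ddx50, Ddx51, Ddx54, Dhx15, Dhx29 and Dhx37 fall outside that rule and were chosen after their values were seen. Paralogs such as Ddx19a and Ddx19b, Ddx39 and Ddx39b, and Ddx21 and Ddx50 may share reads. The members, role lists and marker lists were chosen with earlier results of these data known. Protein sequences were not used here.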

Additional observations from a re-analysis of the deposited data

Results flagged for a closer look

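For 8 members the genotype difference (log2, dKO over WT) differed between whole testis and sorted spermatogonia at an FDR of 0.05 in the edgeR interaction test. The difference, testis minus sorted, was -6.50 for Ddx58 (FDR = 0.0014, edgeR), where sorted WT libraries had 0 counts and the fitted size depends on the prior count. It was -5.05 for Dhx58 (FDR = 0.0356, edgeR), which had 11 and 0 counts in sorted WT. It was 1.78 for Ddx43 (FDR = 0.0238, edgeR), lower in sorted dKO and with overlapping groups in testis, and 0.94 for Ddx17 (FDR = 0.0185, edgeR), of the same pattern. It was -1.20 for Dhx36 (FDR = 0.0252, edgeR) and -0.97 for Dhx32 (FDR = 0.0378, edgeR), higher in sorted dKO without overlap. It was 0.85 for Ddx23 (FDR = 0.0486, edgeR) and -0.59 for Ddx39 (FDR = 0.0442, edgeR). Over the 12 alternatives the FDR ranged from 0.00124 to 0.00655 for Ddx58, from 0.00292 to 0.0774 for Ddx17, from 0.000591 to 0.0868 for Ddx43, from 0.00564 to 0.0807 for Dhx36, from 6.52e-05 to 0.0949 for Dhx58, from 0.0018 to 0.155 for Dhx32, from 0.00123 to 0.169 for Ddx23 and from 0.0234 to 0.202 for Ddx39.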

How the results depend on the processing

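In testis, members higher at the FDR were 1 with the replicate block (Dhx40 missed, 6.43% of all genes). Members lower were 1 with DESeq2 (7.83% of all genes) and 2 without the filter on low counts (6.04% of all genes). In sorted cells, members higher were 3 with DESeq2 and 1 with limma-voom (9.60% of all genes), and members lower were 5 with DESeq2. With the 2-fold threshold added, sorted members higher were 1 with DESeq2 (7.33% of all genes) and 1 with limma-voom (9.40%), and lower 2 with DESeq2 (3.93%). Interaction calls were 5 without the filter (1.96% positive and 7.75% negative over all genes). The replicate block was fitted although nothing in the labels pairs same-numbered libraries. Their correlations were 0.082, -0.221 and -0.119 in testis and 0.018 in sorted cells. With so few libraries a group these values can neither show nor exclude pairing. With 1 library left out, testis members higher were 0 to 4 and lower 0 to 7, sorted members higher 0 to 12 and lower 0 to 9, with 2-fold 0 to 6 and 0 to 5, and interaction calls 1 to 20. The 20 interaction calls came without sorted WT replicate 1, where 11.4% of all genes were called positive and 30.2% negative. Where sorted WT kept 1 library, that library was assumed to vary like the rest. The log2FC of Dhx34 in sorted cells ranged from -1.35 without WT replicate 2 to 9.5 without WT replicate 1, where its direction reversed, since WT replicate 1 holds all its WT counts. Of 198 refits of named members in testis 8 lost and 8 gained a call, and of 160 in sorted cells 22 gained one, Dhx34 with reversed sign included. RLE size factors moved no count of members called within an assay past 1.5 times, and the median log2FC of members stayed within -0.07 to 0.01 in testis and -0.12 to -0.02 in sorted cells with 1 library left out.

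A summit window of 1000 bases gave 5 members with H4R3me2a at P7 (10.3% of all protein-coding and 15.1% of expressed genes). With peaks at q up to 0.01, P7 counts were 0 for H4R3me2a, 1 for H3R2me2a, 1 for H3R8me2a, 1 for H4R3me1, 14 for H3K27ac, and for H4R3me2s 1 in WT and 0 in dKO (0.231% of all protein-coding genes in dKO), and P14 counts were 19, 24, 12, 8 and 8 for H4R3me2a, H3R2me2a, H3R8me2a, H4R3me1 and H4R3me2s. With 1 list left out, H4R3me2a gave 3 to 6 at P7 and 24 to 31 at P14, H3R2me2a 10 to 12 at P7, H3R8me2a 16 to 22 at P7, H4R3me1 12 to 19 at P7 and 31 to 32 at P14, and H4R3me2s 26 to 31 in WT and 16 to 18 in dKO at P7 and 19 to 24 at P14. Where 2 lists exist, the list kept then suffices by itself, so these counts rise by construction. Over all protein-coding genes, single P7 lists marked 25.4% and 25.2% for H3R2me2a, 22.1% and 22.5% for H3R8me2a and 26.5% and 23.3% for H4R3me1. For H4R3me2s at P7 they marked 34.4% and 35.0% in WT and 28.6% and 24.1% in dKO, and for H4R3me1 at P14 42.9% and 44.7%. For the marks with 3 lists no such share was taken.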
